A study of Mus musculus with 12 samples.

Results

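The suppressors of cytokine signalling (SOCS) are 8 genes in the mouse, Socs1 to Socs7 and Cish, and all 8 were found by symbol among the 52635 genes of the deposited table. The proteins they encode share a central SH2 domain, which binds phosphotyrosine, and a carboxy-terminal SOCS box, which recruits elongins and cullin-5 to form a ubiquitin ligase. When a cytokine binds its receptor, JAK kinases phosphorylate the receptor and STAT transcription factors, and the STATs switch on Socs1, Socs2, Socs3 and Cish, whose products then damp the same receptor. Socs4 to Socs7 are better known for acting on growth factor receptors and their adaptors. In T cells SOCS1 restrains interferon-γ signalling, SOCS3 restrains IL-6 signalling through its receptor chain gp130 and the factor STAT3, and CISH restrains IL-2 and T-cell receptor signalling.

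Naive CD4 T cells of C57BL/6 mice, over 95% pure per the labels, were profiled by RNA-seq in 12 libraries. The 6 groups of 2 libraries each were cells labelled RARα TG with 10 nM retinoic acid (RA) and without RA, cells labelled RARα KO with 10 nM RA and without RA, and wild-type (WT) cells with 10 nM RA and without RA. RA is the vitamin A derivative that activates the nuclear receptor RARα, encoded by Rara. Cells of every group were activated with antibodies to CD3 and CD28 for 24 h in medium with charcoal-stripped serum. All groups also received TGF-β1 and TNFα (5 ng/mL each), IL-6 (20 ng/mL), IL-23, IL-21 and IL-1β (10 ng/mL each), and blocking antibodies to IL-4 and IFNγ (10 µg/mL each). The promoter or cell type that drives the transgene, the KO allele and the number of animals were not stated in the sources used here. The labels do not say that the libraries of a group came from separate cultures or animals. Each p-value below thus speaks of the spread between libraries, which is not known to be a spread between animals in every group.

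Values are FPKM, fragments per length of transcript and depth of library, which the authors deposited, and the depth read from the smallest step in these values was 16289889 to 25534584 reads per library. Rara had 126 and 119 FPKM in TG cells with RA, 72.8 and 63.3 FPKM in TG cells without RA, 16.8 to 19.5 FPKM in the libraries labelled KO and 12.3 to 18.9 FPKM in WT libraries. Rara was thus not lower in the libraries labelled KO than in WT, and the genotype of those libraries is given below as the label has it. Xist and Ddx3y placed all 4 libraries labelled KO as female, all 4 WT libraries as male, and, among TG libraries, the 2 numbered 1 as male and the 2 numbered 2 as female, so KO against WT was also female against male. The 2 TG libraries of a group thus came from different animals, which is not known for KO and WT. The 9 CD4 T-cell markers summed to 916 to 1371 FPKM per library. The 2 CD8 markers summed to 1.55 to 4.18 FPKM, the 5 natural killer markers to 0.495 to 2.06 FPKM, and the 7 macrophage or monocyte markers to 3.66 to 19.8 FPKM, with 1 of these 7 at 0 in every library. Summed over 10 B-cell markers, libraries held 30.4 to 136 FPKM, and over 8 dendritic-cell or MHC class II markers 23.9 to 167 FPKM, with none of these markers at 0 in any library. In such bulk samples fewer cells of a type and less RNA per cell cannot be told apart.

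The sequences before 2 of the genes that differed with RA, and around the start of Cish, are shown. Transcription factors downstream of cytokines, STATs among them, bind short motifs of known spelling. Promoter sequences of 300 bases (250 before and 50 after the RefSeq start, GRCm38.p6) were at hand for 4 of the 8 members, Socs1, Socs3, Socs4 and Cish, and not used here for Socs2, Socs5, Socs6 and Socs7. Capitals mark 2 overlapping matches to the interferon-response type motif of GAAA and GAAA with any 2 bases between, in the Socs1 sequence (chr16:10785537-10785786, minus strand), and matches to the motif of STAT dimers, TTC and GAA with any 3 bases between (TTCNNNGAA), in the Socs3 sequence (chr11:117969367-117969616, minus strand) and the Cish sequence (chr9:107296654-107296683, plus strand).
Socs1: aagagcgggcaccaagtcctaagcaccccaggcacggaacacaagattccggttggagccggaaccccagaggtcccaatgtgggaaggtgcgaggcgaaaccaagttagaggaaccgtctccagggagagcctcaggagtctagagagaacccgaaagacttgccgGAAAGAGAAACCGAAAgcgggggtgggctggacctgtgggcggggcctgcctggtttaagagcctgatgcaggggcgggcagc
Socs3: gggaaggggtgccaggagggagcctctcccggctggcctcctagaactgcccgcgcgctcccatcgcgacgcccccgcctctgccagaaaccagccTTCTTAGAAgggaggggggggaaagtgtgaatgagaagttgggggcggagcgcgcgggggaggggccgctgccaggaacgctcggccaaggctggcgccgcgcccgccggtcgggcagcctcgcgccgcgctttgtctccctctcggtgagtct
Cish: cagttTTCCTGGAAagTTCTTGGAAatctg
The Socs1 matches lie at -83 to -74 and -77 to -68 from the RefSeq start, which is also the GENCODE start. The Socs1 window held no match to TTCNNNGAA. The Socs3 match lies at -154 to -146 from the RefSeq start, and GENCODE M21 begins the protein-coding transcript 180 bases further downstream. The window ends 50 bases after the RefSeq start, so the bases from there to the GENCODE start were not searched. The Socs3 stretch shown lies within the gene as GENCODE M21 annotates it (chr11:117966079-117970047). The 2 Cish matches lie at 1 to 9 and 12 to 20 from the RefSeq start, within the 5′ untranslated region of a longer GENCODE transcript, and only 30 bases are shown. On either strand, the interferon-response type motif was in 3.45% of 32544 promoter windows of this length, TTCNNNGAA in 8.33%, and TTC and GAA with 4 bases between, which was in none of the 4 members' windows, in 6.98%. Of the half-sites of retinoid receptors, AGGTCA was in none of the 4 windows, against 16.2% of all windows, and AGTTCA was in the Cish window at -93 to -88, against 14.0% of all windows. The Socs4 window held none of the 5 motifs. A match is a run of letters and not a measured binding site.

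Socs3 was the most abundant member, with a mean of 72.2 FPKM over the 12 libraries, above 97.5% of the 25908 genes with any signal. Cish followed at 37.5 FPKM, Socs1 at 20.9, Socs4 at 17.6, Socs7 at 9.54, Socs2 at 5.80, Socs5 at 5.77 and Socs6 at 3.03 FPKM. All 8 passed the filter on low values, for which 2 or more libraries had to reach 1 FPKM and which 11922 genes passed. The spread over the libraries was widest for Socs1, at 3.72-fold between the highest and the lowest library, then Socs3 at 2.36-fold, Cish at 1.97-fold, Socs2 at 1.75-fold and Socs5 at 1.57-fold. Socs4, Socs7 and Socs6 were nearly flat, at 1.36-fold, 1.20-fold and 1.18-fold. The fewest reads behind a value were about 415, for Socs1 in a TG library with RA, and the most were 9177, for Cish.

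**Figure D1:**
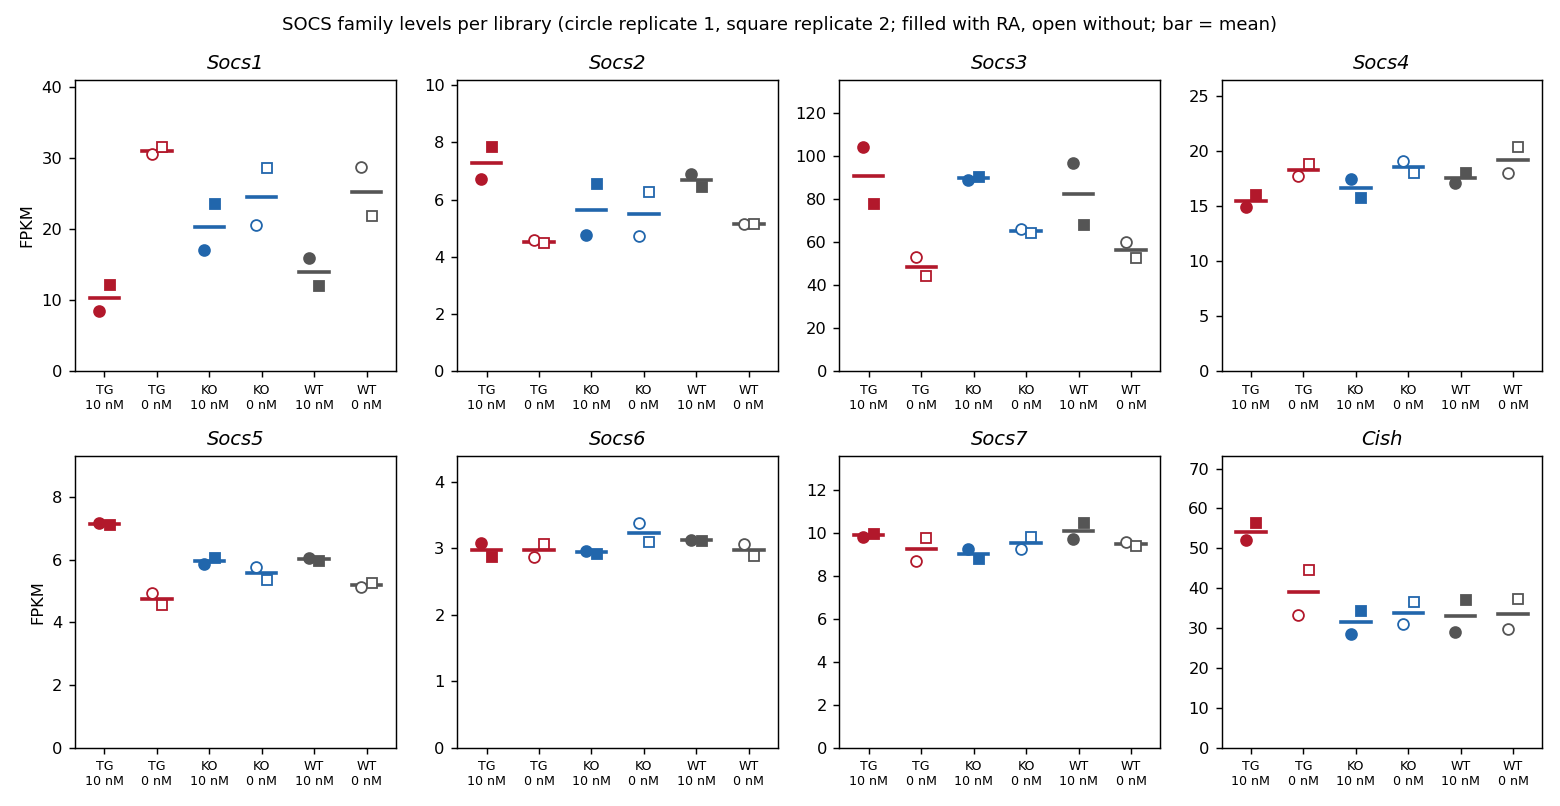
FPKM of each SOCS family gene (one panel per gene, vertical axis from 0) in the 6 groups, with a point per library and a line at the mean of 2 libraries. A TG library with RA has the lowest Socs1 value of all 12, 8.49 FPKM, and another the highest Cish value, 56.3 FPKM, while Socs6 stays between 2.86 and 3.37 FPKM.

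The effect of RA on the family was tested within each genotype, TG first. In TG cells RA moved the 2 best known inhibitors of this pathway in opposite directions: Socs1 fell and Socs3 rose. Socs2 and Socs5 also rose, and Socs4 fell slightly. In all, 3 of 8 members rose and 2 fell by limma at an adjusted p under 0.05, against 39.1% of all 11922 genes tested (19.7% higher and 19.4% lower). The median log2 difference was 0.28 over the 8 members and -0.02 over all genes tested, and differences are on the log2(FPKM + 1) scale throughout. The 2 groups of libraries did not overlap for 7 of 8 members, a state found for 71.1% of all genes tested. The count was 5 of 8 in KO (background 42.3%) and 7 of 8 in WT (background 53.8%).

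Socs1, which binds and inhibits JAK kinases directly, had 8.49 and 12.2 FPKM in TG cells with RA, against 30.6 and 31.6 FPKM in TG cells without RA. Both libraries with RA lay far below both without. The log2 difference was -1.52 ± 0.23 (SE), with an adjusted p of 0.0012 by limma, and it was called in every alternative run. In WT cells Socs1 had 16.0 and 12.03 FPKM with RA, against 28.7 and 21.8 FPKM without RA, again without overlap. That difference, -0.81 ± 0.23, had an unadjusted p of 0.0081 and an adjusted p of 0.066 by limma, and it passed with upper-quartile scaling (0.045) and with limma voom (0.047). In libraries labelled KO, Socs1 had 17.1 and 23.5 FPKM with RA, against 20.6 and 28.5 FPKM without RA, and the groups overlapped. The difference of -0.26 ± 0.23 had an adjusted p of 0.75 by limma, with a 95% interval of -0.80 to 0.27. In the order of group means, TG without RA was highest and did not overlap with WT without RA, next came KO without RA and KO with RA, each overlapping its neighbour, and WT with RA and TG with RA came last, overlapping each other but not KO with RA.

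Socs3, the inhibitor that IL-6 induces through STAT3, had 104 and 77.8 FPKM in TG cells with RA, against 53.1 and 44.2 FPKM in TG cells without RA. It rose by 0.88 ± 0.18 on the log2 scale, with an adjusted p of 0.0050 by limma. The libraries labelled KO had 89.2 and 90.6 FPKM with RA, against 66.0 and 64.3 FPKM without RA, and WT had 96.8 and 67.9 FPKM with RA, against 60.1 and 52.5 FPKM without RA. Both libraries with RA exceeded both without in all 3 genotypes. The differences of 0.46 ± 0.18 in KO (adjusted p = 0.41 by limma, unadjusted 0.033) and 0.52 ± 0.18 in WT (adjusted p = 0.11 by limma) did not pass in the main fit. The WT difference passed with a replicate block (value at the end). With a WT library left out the WT difference was 0.27 to 0.78, lowest without WT replicate 1 with RA (adjusted p = 0.46 by limma) and past the threshold only without WT replicate 2 with RA (0.040). By group mean the 3 groups with RA came before the 3 without, and the 3 groups with RA overlapped one another.

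Socs2, best known as the brake on growth hormone signalling and a STAT5 target, had 6.71 and 7.84 FPKM in TG cells with RA, against 4.57 and 4.47 FPKM in TG cells without RA. It rose by 0.58 ± 0.14 (adjusted p = 0.013 by limma). The call was lost without TG replicate 2 with RA (0.085) or TG replicate 2 without RA (0.063). WT cells had 6.91 and 6.45 FPKM with RA, against 5.15 and 5.16 FPKM without RA, a difference of 0.32 ± 0.14 that did not pass (adjusted p = 0.21 by limma). In libraries labelled KO the values were 4.76 and 6.55 FPKM with RA, against 4.73 and 6.28 FPKM without RA, nearly the same range at both doses. In the order of means, TG with RA came first and TG without RA last, and of the neighbours in that order only WT without RA and TG without RA did not overlap.

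Cish, a STAT5 target, had 52.1 and 56.3 FPKM in TG cells with RA, against 33.3 and 44.7 FPKM in TG cells without RA. The 2 TG libraries with RA were the highest of all 12. The difference within TG, 0.48 ± 0.18, missed the threshold (adjusted p = 0.063 by limma, unadjusted 0.026). It passed with limma voom (0.042) and with a replicate block (value at the end), though the numbers were not taken to pair the libraries. With a TG library left out it was 0.27 to 0.68, lowest without TG replicate 1 lacking RA (adjusted p = 0.32 by limma) and past the threshold only without TG replicate 2 lacking RA (0.035). WT cells had 29.0 and 37.0 FPKM with RA, against 29.8 and 37.4 FPKM without RA, and libraries labelled KO had 28.5 and 34.3 FPKM with RA, against 31.1 and 36.6 FPKM without RA. These 4 groups overlapped one another, with RA differences of -0.02 ± 0.18 in WT and -0.11 ± 0.18 in KO and 95% intervals of -0.43 to 0.38 and -0.51 to 0.30. TG without RA stood next below TG with RA by mean and overlapped the KO libraries without RA.

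Of the members that are not classical feedback genes, Socs5, which is known to act on the epidermal growth factor and IL-4 receptors, changed most evenly. It had 7.16 and 7.10 FPKM in TG cells with RA, against 4.95 and 4.56 FPKM in TG cells without RA, and rose by 0.50 ± 0.06 (adjusted p = 0.00025 by limma), the smallest adjusted p of the family. WT cells had 6.05 and 5.97 FPKM with RA, against 5.14 and 5.27 FPKM without RA, without overlap but short of the threshold (0.18 ± 0.06, adjusted p = 0.097 by limma). Libraries labelled KO had 5.87 and 6.05 FPKM with RA, against 5.76 and 5.36 FPKM without RA, a difference of 0.09 ± 0.06 (adjusted p = 0.66 by limma). Group means ran in the order TG, WT and KO with RA, then KO, WT and TG without RA, and of these neighbours only WT with RA and KO with RA overlapped.

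Socs4, which like Socs5 is known for acting on the epidermal growth factor receptor, had 15.0 and 16.0 FPKM in TG cells with RA, against 17.8 and 18.8 FPKM in TG cells without RA. The fall of 0.23 ± 0.08 on the log2 scale was just past the threshold (adjusted p = 0.043 by limma). It was lost without any 1 of the 4 TG libraries (0.066 to 0.21), with no filter on low values (0.078) and with only the groups compared in the fit (0.063). Differences were -0.15 ± 0.08 in KO and -0.12 ± 0.08 in WT, neither called, and each group overlapped its neighbour in the order of means. Socs6 and Socs7, both linked to insulin receptor signalling, kept to 2.86 to 3.37 FPKM and 8.71 to 10.4 FPKM over all 12 libraries. Their RA differences in TG were 0.00 ± 0.07 and 0.09 ± 0.06, with 95% intervals of -0.16 to 0.16 and -0.06 to 0.24.

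**Figure D2:**
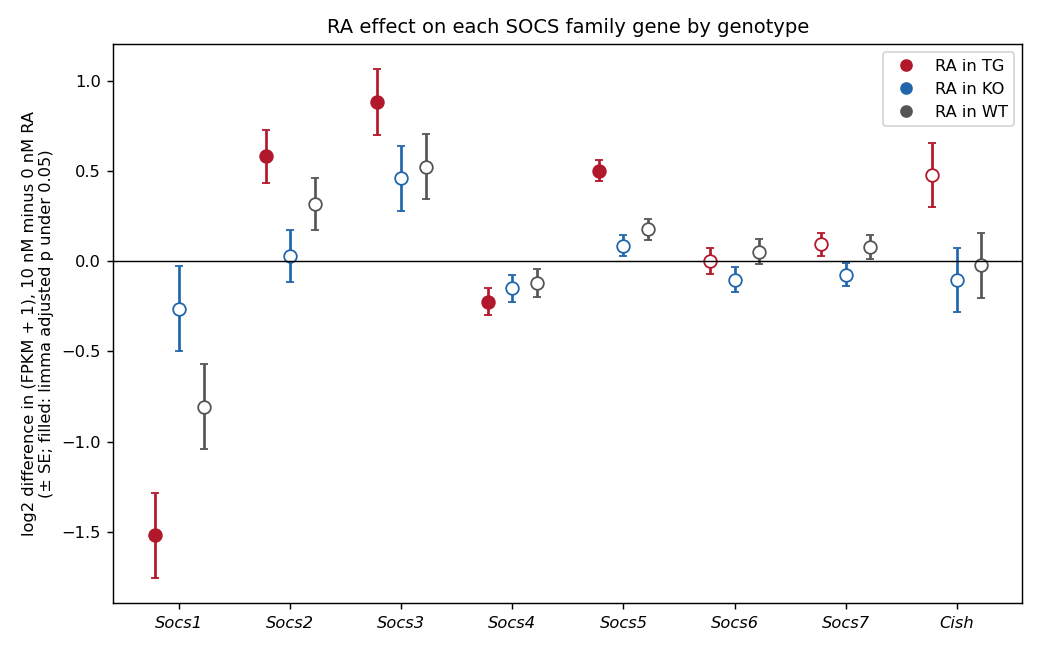
RA effect on each gene by genotype: log2 difference in FPKM + 1, RA minus no RA, with the standard error of the limma fit (2 libraries per group), and filled points for an adjusted p under 0.05. The filled points are TG points: Socs1 at -1.52, Socs4 at -0.23, Socs5 at 0.50, Socs2 at 0.58 and Socs3 at 0.88.

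In WT cells RA gave 0 calls among the 8 members by limma, against 10.1% of all genes tested (6.67% higher and 3.47% lower, or 795 and 414 genes, against 567 and 787 with upper-quartile scaling). There were 3 at an unadjusted p under 0.05 and 1 by limma voom, and the median difference was 0.06 over the members and 0.02 over all genes tested. In libraries labelled KO there were 0 calls by limma, against 0.143% of all genes tested, with 1 member at an unadjusted p under 0.05 and 0 by voom. Member differences in KO lay between -0.26 and 0.46, with adjusted p-values of 0.41 to 0.97. The RA effects in TG and in WT were also compared directly, and 0 members passed by limma, against 7.48% of all genes tested, with 1 at an unadjusted p under 0.05 and 1 by voom. The RA effect on Socs5 was larger in TG by 0.32 ± 0.08 (adjusted p = 0.051 by limma), that on Socs1 differed by -0.71 ± 0.33 (adjusted p = 0.26), and that on Cish larger by 0.50 ± 0.25 (adjusted p = 0.30). With a library left out, the Socs1 difference was -0.95 to -0.47, nearest 0 without TG replicate 1 with RA, and the Cish difference 0.29 to 0.71, lowest without TG replicate 1 lacking RA. The Socs5 difference passed with upper-quartile scaling (0.048) and by voom (0.042). With a replicate block the Socs5 and Cish differences passed (values at the end). The main fit did not pair libraries by number, and the labels do not settle whether they are paired. For KO against WT, the difference in RA effect was called for 0 members by limma, 0 at an unadjusted p under 0.05 and 0 by voom, against 0.00839% of all genes.

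The genotypes were then set against WT at the same dose. With RA, TG cells had more Cish and more Socs5 than WT cells: 2 of 8 members rose and 0 fell, against 11.5% of all genes tested in either direction and 6.84% higher. The Cish libraries of these groups, given above, did not overlap, and the difference was 0.71 ± 0.18 (adjusted p = 0.037 by limma). The Socs5 difference was 0.21 ± 0.06 (adjusted p = 0.0499 by limma). Both calls were lost without any 1 of the 4 libraries (adjusted p of 0.051 to 0.18 for Cish and 0.12 to 0.18 for Socs5), with only the groups compared and with a sex term. The sex term was estimated from TG libraries alone, where sex goes with library number. Without RA, TG against WT gave 0 calls by limma, 0 members at an unadjusted p under 0.05 and 0 by voom, with differences of -0.21 to 0.30 and a background of 4.31%. Socs1 in TG without RA exceeded WT by 0.30 ± 0.23 (adjusted p = 0.56 by limma).

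Between libraries labelled KO and WT, 0 members were called by limma at either dose, 0 had an unadjusted p under 0.05 and 0 were called by voom. Of all genes tested, 0.881% were called with RA and 1.74% without. The differences ranged from -0.22 to 0.50 with RA and from -0.05 to 0.21 without. Socs1 had the difference of 0.50 ± 0.23 with RA, at an adjusted p of 0.49 by limma and a 95% interval of -0.04 to 1.04. It was 0.28 to 0.72 with a library left out, lowest without KO replicate 2, and 0.24 ± 0.33 with a sex term. That term was estimated from TG libraries alone, where sex goes with library number, so it cannot separate sex from genotype here.

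The opposite movement of Socs1 and Socs3 changed the makeup of the family. On the FPKM scale, which is per length, the ratio of Socs3 to Socs1 was 12.3 and 6.38 in TG cells with RA, against 1.74 and 1.40 in TG cells without RA. It was 5.22 and 3.86 in KO with RA, against 3.20 and 2.25 in KO without RA. The WT ratios were 6.06 and 5.65 with RA, against 2.09 and 2.41 without RA. In all 3 genotypes both libraries with RA had the higher ratio. Socs1 made up 4.11 and 6.42% of the family's summed FPKM in TG cells with RA, against 19.6 and 19.6% in TG cells without RA, and Socs3 50.5 and 40.9% against 34.1 and 27.4%. The summed FPKM of all 8 members was 207 and 190.0 in TG cells with RA, against 156 and 161 in TG cells without RA. No test was run on these sums and ratios.

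**Figure D3:**
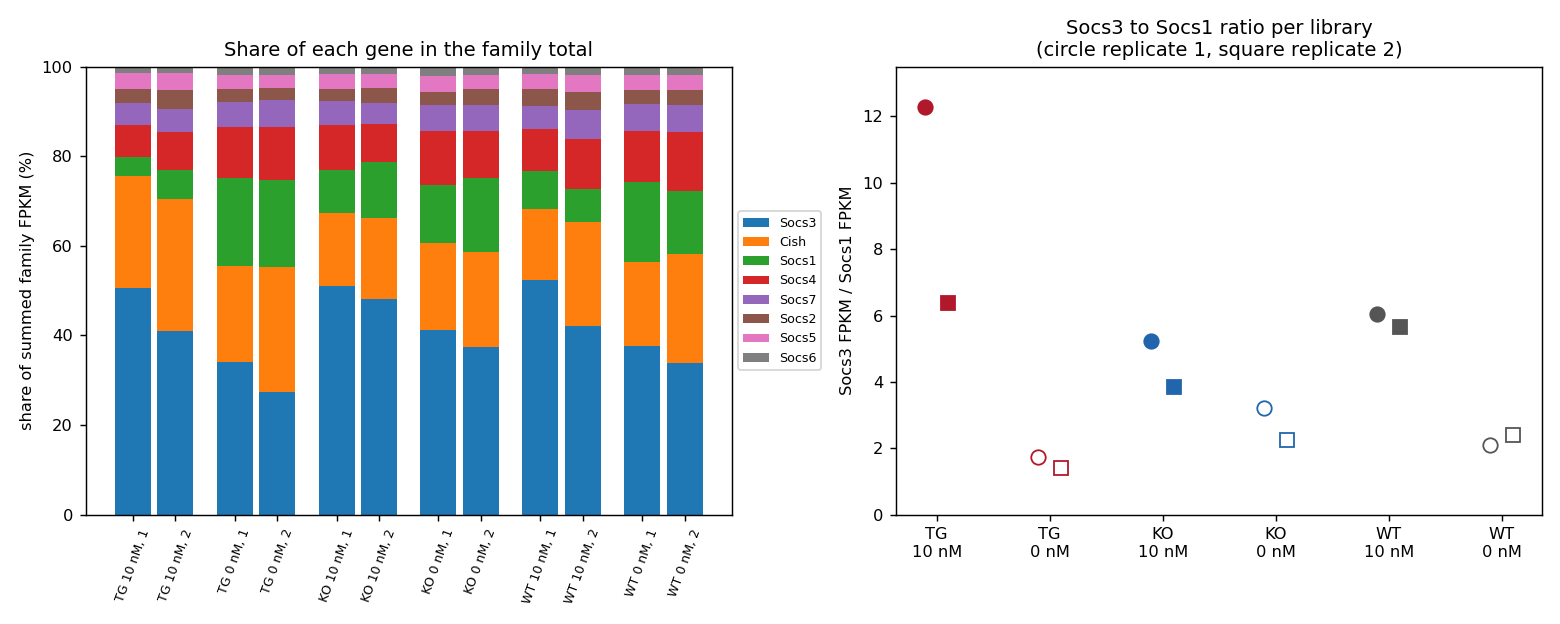
Balance of the family in each library: the share of each gene in the summed FPKM of the family (left, %) and the ratio of Socs3 to Socs1 in FPKM (right), by group, with 2 libraries per group. The TG libraries with RA have ratios of 12.3 and 6.38 and Socs1 shares of 4.11 and 6.42%.

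Other cells' transcripts moved with the TG comparison and with the replicate number. The 10 B-cell markers summed to 112 and 111 FPKM in TG cells with RA, against 32.8 and 36.0 FPKM in TG cells without RA, mostly Ighm (101 and 95.9 against 27.5 and 27.6 FPKM), and 1 of the 10 was called. The 5 NK-cell markers summed to 0.633 and 0.841 FPKM in TG cells with RA, against 1.51 and 2.06 FPKM in TG cells without RA. Most of this was Klre1, at 0.187 and 0.304 FPKM with RA, against 1.49 and 1.88 FPKM without RA. Klre1, the 1 marker tested, reached 1 FPKM only in TG libraries without RA. It passed the filter through them, so its lower value with RA is no support for a fall of these markers. Eomes, not tested, was higher with RA, at 0.387 and 0.265 FPKM against 0.0122 and 0 FPKM. Of the macrophage or monocyte markers 1 of 2 tested fell, and of the dendritic-cell or class II markers 1 of 6 tested rose. Of these 6, Itgax had 1.20 and 1.76 FPKM in TG cells with RA, against 0.0317 and 0.139 FPKM in TG cells without RA. Outside TG with RA it reached 1 FPKM only in WT replicate 2 with RA (1.10 FPKM). It passed the filter through the TG libraries with RA, so its higher value there is no support for a rise of these markers. The part of other cells' transcripts in the family's differences was not tested. Of the 9 CD4 T-cell markers, 4 rose and 2 fell with RA in TG. Cish was higher in replicate 2 than in replicate 1 in 6 of 6 groups, as were 7.59% of all genes tested. The 8 dendritic-cell or class II markers summed to 43.5 to 167 FPKM in the libraries numbered 2 and 23.9 to 32.6 FPKM in those numbered 1. In TG cells with RA this sum was 43.5 FPKM in replicate 2 and 32.6 FPKM in replicate 1, and in WT cells with RA it was 167 and 26.3 FPKM. Its part in the Cish values was not tested.

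**Figure D4:**
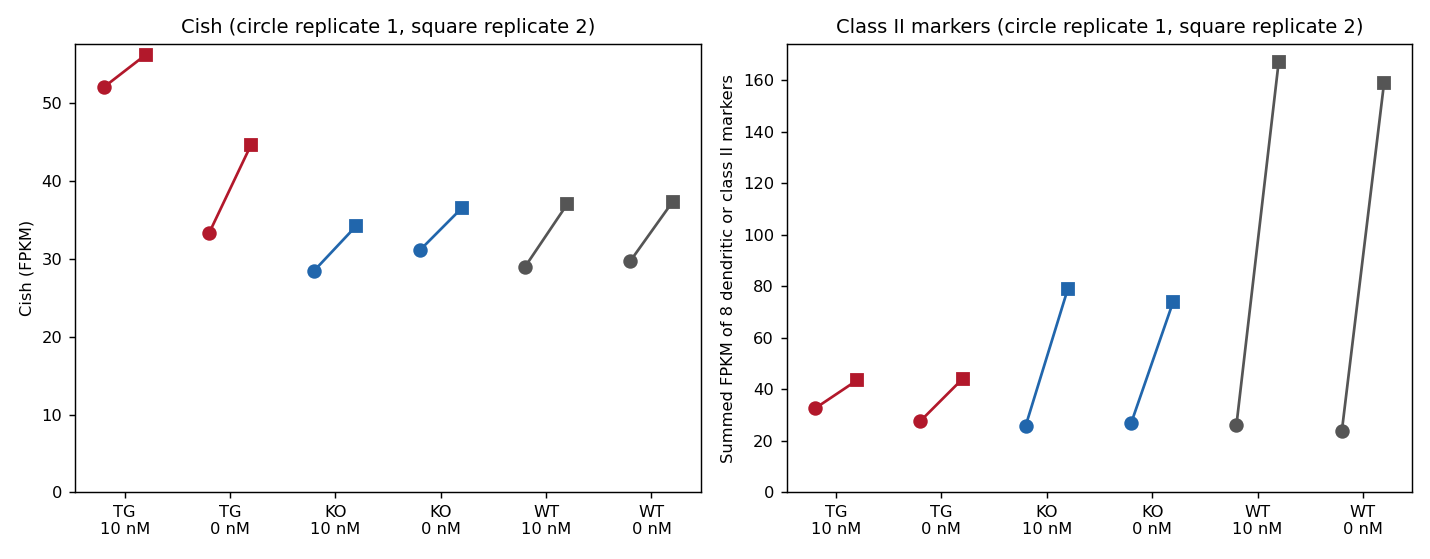
Cish (left, FPKM) and the summed FPKM of 8 dendritic-cell or class II markers (right) in each group, with circles for replicate 1 and squares for replicate 2 joined by a line. The square is above the circle in 6 of 6 groups in both panels, and the marker sum reaches 167 in WT with RA.

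The genes around the SOCS proteins were read from 8 lists with 89 tested members in all. The lists were chosen with earlier results of these data known, so the counts over them, here and below, are descriptions. With RA in TG, 58 of the 89 were called by limma (background 39.1%), and with RA in WT 29 (background 10.1%). The 58 include Il23r, which passed the filter only through TG libraries without RA. In libraries labelled KO 0 were called by limma (background 0.143%), with 22 at an unadjusted p under 0.05 and 0 by voom. TG against WT called 17 with RA (background 11.5%) and 11 without RA (background 4.31%). KO against WT called 4 without RA (background 1.74%) and 0 with RA by limma (background 0.881%), in this case with 19 at an unadjusted p under 0.05 and 1 by voom. The median differences with RA in TG were 0.15 for JAK kinases and STAT factors, -0.15 for receptor chains, -0.56 for ligands, -0.17 for ligase partners, 0.00 for other SOCS box proteins and 0.14 for other negative regulators, beside -0.02 for all genes tested. Among JAK kinases and STAT factors, the kinases and transcription factors that SOCS proteins restrain, 5 of 11 rose and 2 fell with RA in TG, and 4 rose and 1 fell in WT. Stat4, the factor downstream of IL-12, had 8.98 and 6.33 FPKM in TG cells with RA, against 1.09 and 0.951 FPKM in TG cells without RA, a rise of 2.08 ± 0.16 by limma. Jak1 rose by 0.85 ± 0.10 and Stat2 by 0.43 ± 0.06, while Stat5a, which IL-2 activates, fell by 0.57 ± 0.05.

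Receptor chains moved both ways: of 18 tested of 23, 7 rose and 8 fell with RA in TG, and 5 rose and 3 fell in WT. Il23r, counted among the 8, passed the filter only through the TG libraries without RA. For these and the ligands below, the shares over all genes tested were 19.7% higher and 19.4% lower in TG, and 6.67% and 3.47% in WT. Both chains of the interferon-γ receptor, a target of SOCS1, rose in TG. Ifngr1 had 79.0 and 67.4 FPKM in TG cells with RA, against 13.6 and 12.01 FPKM in TG cells without RA (2.42 ± 0.10), and Ifngr2 rose by 1.10 ± 0.06. Il10rb rose by 1.70 ± 0.08 and Il21r, the receptor chain for IL-21, by 1.14 ± 0.07. Of the cytokine ligands, 9 tested of 16, 2 rose and 5 fell in TG and 0 rose and 4 fell in WT. Il9, Il10, Il24 and Il21 had the smallest p-values, and Il21, which was also added to the medium as protein, fell by 0.56 ± 0.06 in TG.

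Of the elongin and cullin-5 ligase partners, through which the SOCS box acts, 2 of 8 rose and 2 fell with RA in TG, near the 39.1% of all genes tested that were called, and 2 rose in WT (background 10.1%). Ube2f, the neddylation enzyme for cullin-5, had 11.9 and 11.2 FPKM in TG cells with RA, against 4.73 and 4.82 FPKM in TG cells without RA (1.12 ± 0.08), and Arih2 rose by 0.27 ± 0.05. Nedd8 fell by 0.25 ± 0.06 and Rbx1 by 0.24 ± 0.07, and both calls were lost without TG replicate 2 at either dose (adjusted p of 0.062 to 0.14 by limma) and with only the groups compared. Of the other SOCS box proteins, 12 tested of 26, 3 rose and 3 fell in TG and 2 rose in WT, beside the same backgrounds. Asb2 had 6.82 and 7.88 FPKM in TG cells with RA, against 0.0429 and 0.0332 FPKM in TG cells without RA (3.005 ± 0.16, or 5.75 with a pseudocount of 0.1 and 7.41 by voom), Spsb1 rose by 0.66 ± 0.08, and Spsb3 and Wsb1 fell by 0.46 ± 0.07 and 0.39 ± 0.07. Of 13 other negative regulators of JAK and STAT signalling, 5 rose and 2 fell in TG and 3 rose in WT. Usp18, which blocks the type I interferon receptor, rose by 1.75 ± 0.17, the phosphatases Ptpn6 and Ptpn1 rose by 0.61 ± 0.06 and 0.53 ± 0.06, and the adaptor Sh2b3 fell by 0.87 ± 0.11.

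In both lists of genes that STAT5 and STAT3 are known to induce, more members fell than rose with RA in TG. Of all genes tested, 19.7% rose and 19.4% fell in TG, and 6.67% rose and 3.47% fell in WT. Pim1 and Bcl2l1 are on both lists. Of 11 genes induced by IL-2 through STAT5, 1 rose and 5 fell, with 4 falling in WT. Pim2, a survival kinase, had 19.8 and 17.3 FPKM in TG cells with RA, against 72.1 and 73.0 FPKM in TG cells without RA (-1.92 ± 0.09 by limma), Bcl2l1 fell by 1.33 ± 0.15, Il2ra by 0.88 ± 0.07 and Myc by 0.35 ± 0.07. Of 13 genes induced through STAT3, 2 rose and 9 fell in TG, and 1 rose and 4 fell in WT. Il17f had 2.97 and 3.97 FPKM in TG cells with RA, against 307 and 389 FPKM in TG cells without RA. Il23r, counted among the 9, was listed at 0 in both TG libraries with RA, against 1.61 and 1.18 FPKM in TG libraries without RA. It reached 1 FPKM only in those without RA and passed the filter through them, so its call is no support for a fall. Both lists thus held members that moved in each direction, and medians in TG were -0.31 for the STAT5 list and -0.54 for the STAT3 list, beside -0.02 for all genes tested.

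**Figure D5:**
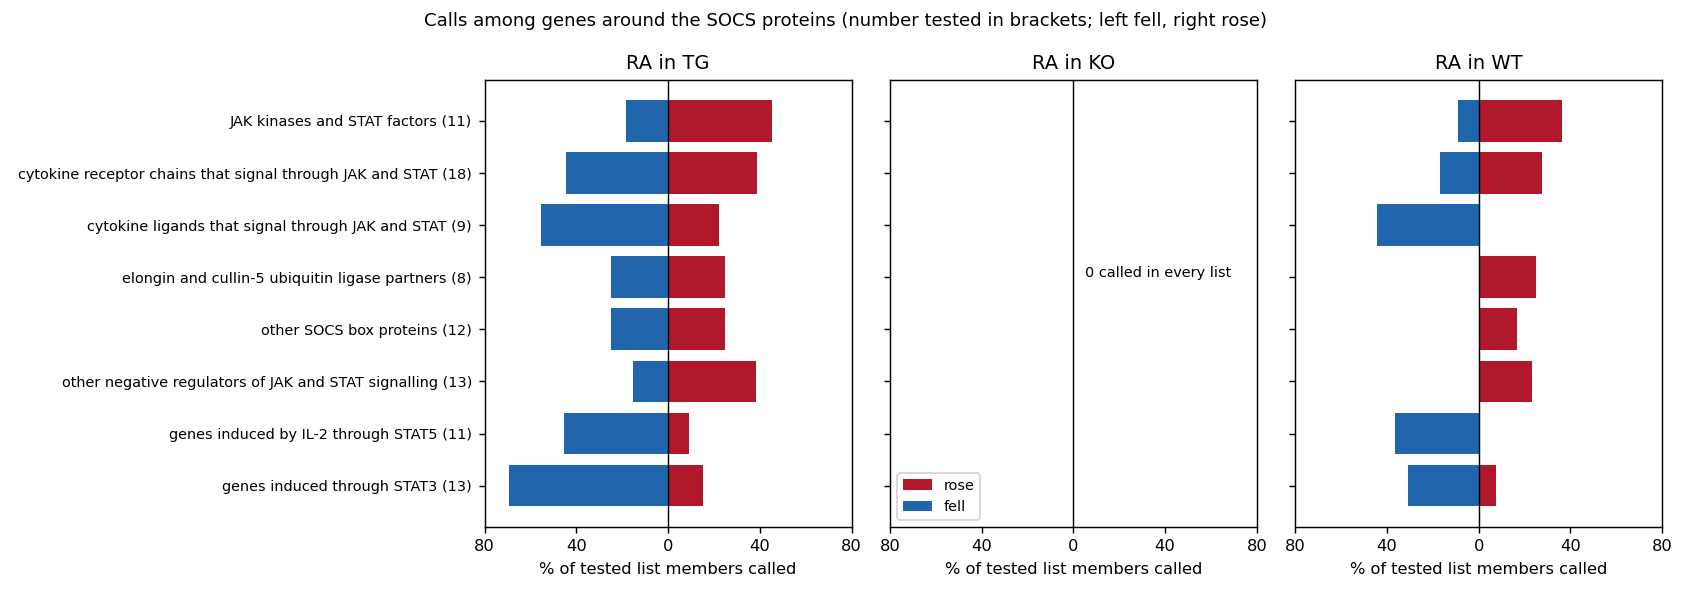
Share of tested members of each of 8 gene lists that rose (red, to the right) or fell (blue, to the left) with RA by limma at an adjusted p under 0.05, in TG, in libraries labelled KO and in WT. The KO panel holds 0 calls, and in TG 9 of 13 STAT3-induced genes fell, against 19.4% of all genes tested. The 9 include Il23r, which passed the filter only through the TG libraries without RA. The lists were chosen with earlier results of these data known.

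The genes whose levels followed each called member most closely over the 12 libraries, out of 10184 searched, were found by Pearson's r on log2(FPKM + 1), as a description over libraries that share RA dose and genotype. Socs1 was most like Trim37 (0.978), Sp110 (0.964) and Rgcc (0.962), and Socs3 most like Pced1b (0.975) and Irf2 (0.974). Socs5 was most like Adam10 (0.985), Usp25 (0.985) and Retreg1 (0.984), and Cish most like Stx12 (0.945), Batf3 (0.942) and Tnk2 (0.933). Batf3 reached 1 FPKM only in the TG libraries with RA (3.17 and 3.55 FPKM), where Cish was highest, and passed the filter through them. Socs2 was most like Slc43a3 (0.938), Atxn2 (0.934) and Atxn7l1 (0.924), and Socs4 most like Tnfrsf10b (0.942), Rhod (0.923) and Appbp2 (0.922). Within the family, Socs3 and Socs5 had an r of 0.84, Socs1 and Socs5 one of -0.89, and Socs1 and Socs3 one of -0.70.

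The members lie on 7 chromosomes of GRCm38 by GENCODE M21: Socs1 (ENSMUSG00000038037) at chr16:10782240-10785536, Socs2 (ENSMUSG00000020027) at chr10:95385362-95417180, Socs3 (ENSMUSG00000053113) at chr11:117966079-117970047, Socs4 (ENSMUSG00000048379) at chr14:47276931-47296102, Socs5 (ENSMUSG00000037104) at chr17:87107679-87137839, Socs6 (ENSMUSG00000056153) at chr18:88665224-88927481, Socs7 (ENSMUSG00000038485) at chr11:97362551-97398542 and Cish (ENSMUSG00000032578) at chr9:107296026-107302784. Cish is overlapped on the other strand by Gm17040, listed at 0.0489 to 1.44 FPKM, and by Gm17041, at most 0.329 FPKM. Whether the counting used strand is not given in the sources used here, so reads of these could not be told apart from Cish if it did not.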

How the data were processed

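RNA-seq libraries were stranded and read as single reads of 100 bp, per the labels' protocols. Tools named, without their roles, in the submitters' processing notes are STAR, DESeq2, HTSeq 0.6.1 and Trimmomatic 0.32, and the builds named there are mm10 and GRCm38.p5. The sources used here do not give the annotation release. The authors deposited FPKM per gene for 52635 genes and 12 libraries, so a count model was not the main test.

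The 11922 genes that reached 1 FPKM in 2 or more libraries were fitted with limma 3.58.1 in R 4.3.3 (trended eBayes, 1 mean for each of 6 groups, 6 residual degrees of freedom) on log2(FPKM + 1), a scale that understates the change of low genes. Tests were two-sided, with Benjamini-Hochberg adjustment over all genes tested in each of 9 comparisons and a threshold of 0.05. RA in WT shares its libraries with the comparisons of TG and KO against WT. The code was tested on simulated data.

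Depth was inferred from the smallest step, worth 1 read, in FPKM times GENCODE M21 exon length, and 95.3 to 95.9% of values of up to 20 reads lay within 0.02 of a whole number. Reads recovered this way were whole for Cish, Socs2, Socs3 and Socs7 within 0.0651, but not for Socs1, Socs4, Socs5 and Socs6, whose reads are approximate. Read numbers bear on counting error only.

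The members and lists were chosen with earlier results of these data known. All 8 members are described, with up to 4 members of each list by smallest limma p for RA in TG, and for each member called in any comparison the 3 genes with the highest correlation. Some genes and 1 list that these rules name are not reported here. Alternatives were a pseudocount of 0.1, no filter, upper-quartile scaling, a fit of the compared groups alone, a replicate block and leave-one-out fits. A sex term and limma voom on the recovered reads were chosen after seeing the data. Only TG libraries inform the sex term, as KO libraries were all female and WT libraries all male. Tables were handled in Python 3.11.15 with pandas 2.3.3.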

Additional observations from a re-analysis of the deposited data

Results flagged for a closer look

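The 8 lists were chosen with earlier results of these data known, so the share that follows is a description. The RA effect differed between TG and WT by limma at an adjusted p under 0.05 for 22 of the 89 tested genes of the 8 lists, against 7.48% of all genes tested. Those named here, 14 in all, had been chosen by their RA effect in TG, which uses the same TG libraries, so their number is a description and is not compared with the family's. Each value is the log2 RA effect in TG minus that in WT, on 2 libraries per group. Larger in TG were the effects on Asb2 (1.78), Usp18 (1.28), Ifngr1 (1.15), Stat4 (1.14), Il10rb (1.02), Ube2f (0.76), Il21r (0.62) and Ifngr2 (0.61). Lower in TG were those on Il17f (-4.23), Pim2 (-1.25), Il23r (-1.05), Sh2b3 (-0.65), Spsb3 (-0.51) and Stat5a (-0.29). Il23r was listed at 0 in both TG libraries with RA, so its fitted difference depends on the pseudocount. It also passed the filter only through the TG libraries without RA (1.61 and 1.18 FPKM), so its call is no support for a difference.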

How the results depend on the processing

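In TG, 3 to 4 members were called with RA when 1 library was left out, against 5 in full, and the Socs6 difference of 0.00 changed sign under upper-quartile scaling (-0.040), by voom (-0.0093) and between libraries left out (-0.038 to 0.040). For RA in WT the members called numbered 1 with the replicate block, with upper-quartile scaling and by voom, and 0 to 1 with a library left out. For the difference between the RA effects of TG and WT they numbered 2 with the replicate block and 1 with upper-quartile scaling and by voom, against 0. For TG against WT with RA the 2 members became 1 with a pseudocount of 0.1 or upper-quartile scaling and 0 with no filter, only the compared groups, a sex term or any library left out (0 to 0).

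Counts over all genes moved more. With only the compared groups, KO against WT gave 14 with RA (105 in full) and 26 without (207), RA in KO 0 (17), RA in WT 142 (1209), and TG against WT 422 with RA (1369) and 47 without (514). The replicate block gave 174, 479 and 73 for the first 3 of these and 823 for TG against WT without RA. The sex term gave 28 and 35 for KO against WT and 200 for TG against WT without RA. With KO all female and WT all male, this term was estimated from TG libraries alone, where sex goes with library number. These counts are thus not an adjustment for sex in KO against WT. RA in KO gave 30 with no filter. The difference between the RA effects of KO and WT (1) gave 21 with no filter, 0 with a pseudocount of 0.1, 3 with the sex term and 0 by voom. With a library left out, counts were 44 to 94 and 31 to 80 for KO against WT with and without RA, 6 to 16 for RA in KO, 342 to 850 for RA in WT, 3233 to 4083 for RA in TG, 626 to 1041 and 131 to 224 for TG against WT with and without RA, 469 to 716 for TG minus WT and 1 to 4 for KO minus WT.

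Same-numbered libraries of 15 pairs of groups deviated together at r of 0.0035 to 0.327 (median 0.134, 10 over 0.1). Not all pairs were over 0.1, so the main fit did not pair libraries by number. Between the doses of a genotype, however, r was 0.15 in TG, 0.32 in KO and 0.33 in WT. In TG, number 1 was male and number 2 female at both doses. Libraries may thus be paired within a genotype, which the labels do not settle, so block results stand beside the unpaired ones. Under the replicate block Cish passed for RA in TG (adjusted p = 0.0010 by limma), Socs3 for RA in WT (0.029), and Socs5 (0.044) and Cish (0.018) for the difference between the RA effects of TG and WT. The causes of these changes were not tested. Counting error alone, in each member's library with the fewest reads, was 1.78% of the value for Cish to 4.91% for Socs1.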
